A study of Homo sapiens with 6 samples.

Results

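The KYSE-30-only distal regions are accessible sites that were found in 1 of the 2 ATAC-seq libraries of KYSE-30, in no library of the other cell lines, and away from gene starts. ATAC-seq uses the Tn5 transposase to cut open DNA, so that accessible sites collect more sequenced fragments than their surroundings. KYSE-30 and KYSE-150 are human esophageal squamous cell carcinoma (ESCC) lines grown in RPMI/F12 with serum, and HET-1A is an immortalized, non-tumor line of esophageal epithelium grown in BEBM medium, so line and medium cannot be told apart. No line was treated, and each was prepared as 2 biological replicates, named here by the number in its label (HET-1A libraries 1 and 2, KYSE-30 libraries 4 and 6, KYSE-150 libraries 7 and 8). All peaks were merged where they shared at least 1 bp, which gave 23972 regions on hg19. Regions were selected on the peak calls themselves: a peak in exactly 1 KYSE-30 library, no peak in HET-1A or KYSE-150, more than 3 kb from every annotated transcription start site, and outside chr7:52000001-57000000, the segment around EGFR. The rule kept 3976 regions, 16.6% of all merged regions, of which 3759 were peaks of library 6 and 217 were peaks of library 4. A further 58 regions met every other condition but lay in the chromosome 7 segment, and 60 distal regions had peaks in both KYSE-30 libraries and none elsewhere, so neither set belongs to the members.

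Distal accessible sites often act as enhancers, short stretches of DNA that bind transcription factors and raise the transcription of genes that can lie far away. AP-1, a dimer of JUN and FOS family proteins that acts at the end of growth factor and MAP kinase signaling, binds the core TGACTCA and is a common occupant of enhancers in epithelial cells. TEAD proteins, the DNA-binding partners of YAP and TAZ, and RUNX proteins often bind near AP-1, while p63 specifies squamous epithelium and CTCF marks chromatin boundaries.

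The libraries stood far apart in their number of peaks, from 168 and 15979 for the HET-1A pair to 1255 and 11671 for the KYSE-30 pair and 547 and 259 for the KYSE-150 pair. Because read totals were not part of the peak lists, depth was read from the genome background, the lowest local background of a library in tags per 200 bp, which was 2.36 tags in library 4 and 1.49 in library 6 and 1.88 to 3.34 in the other lines. At the genome background, peaks were called down to 3.86-fold enrichment in library 4 and down to 2.99-fold in HET-1A library 2, and 95.4% and 99.9% of the library 6 members reached these values. These are fold enrichments measured in library 6, and the same site need not reach the same value in another library. The shares therefore do not show how many members would have been called there. Of the 16 squamous epithelial markers examined, 5 had a peak within 3 kb of a start site in library 6 (among them EPCAM, KLF5, LAMB3 and GRHL2) and 0 in library 4, while TP63, KRT5 and KRT14 had none in any library. Blood, endothelial and hepatocyte markers had no such peak in any library, RBFOX3 was the only neuronal marker with one in KYSE-30 (library 4), and VIM the only mesenchymal one (library 6). With 2 libraries a line, the smallest two-sided p-value that exact permutation allows is 0.33, so lines were not tested against each other.

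The windows below, 200 bp centered on the summit of a peak and read from the plus strand of hg19, show the AP-1 core, which 37.5% of all members held, against 3.06% of genome windows of this length more than 3 kb from a start site. In the first 4, the strongest library 6 members with an AP-1 core within 50 bp of the summit, capitals mark the core on either strand.
SCN9A intron, chr2:167096154-167096353: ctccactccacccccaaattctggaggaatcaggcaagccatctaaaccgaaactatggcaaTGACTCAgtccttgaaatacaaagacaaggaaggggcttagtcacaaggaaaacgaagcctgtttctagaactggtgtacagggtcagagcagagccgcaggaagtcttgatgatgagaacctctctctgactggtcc
Intergenic, nearest coding start KCNJ2, chr17:69068056-69068255: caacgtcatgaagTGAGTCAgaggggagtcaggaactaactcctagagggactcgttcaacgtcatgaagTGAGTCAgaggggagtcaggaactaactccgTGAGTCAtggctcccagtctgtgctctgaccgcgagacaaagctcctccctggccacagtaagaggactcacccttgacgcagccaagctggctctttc
Intergenic, nearest coding start DPYD, chr1:98552418-98552617: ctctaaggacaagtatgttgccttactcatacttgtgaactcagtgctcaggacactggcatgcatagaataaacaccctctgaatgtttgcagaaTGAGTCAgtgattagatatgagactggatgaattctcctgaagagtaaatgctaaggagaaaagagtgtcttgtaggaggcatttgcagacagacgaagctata
Intergenic, nearest coding start INTU, chr4:127771488-127771687: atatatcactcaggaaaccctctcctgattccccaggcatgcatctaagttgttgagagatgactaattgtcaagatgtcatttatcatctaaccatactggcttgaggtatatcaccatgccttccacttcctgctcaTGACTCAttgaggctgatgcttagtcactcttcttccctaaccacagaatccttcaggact

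The SCN9A window had 35 tags at its summit over a background of 1.82 and a fold enrichment of 12.8, and its core lay 35 bp before the summit. The KCNJ2 window, 902 kb from the nearest coding start, had 42 tags and a fold enrichment of 12.4. It held 3 cores, and an exact stretch of 43 bp occurred in it more than once. The core of the DPYD window lay 1 bp from the summit (fold enrichment 12.3, 34 tags), and that of the INTU window 42 bp after it (fold enrichment 12.1, 29 tags).

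A second set shows windows that combine the core with other motifs or that lie near genes described further on. Capitals mark the AP-1, TEAD and RUNX motifs in the first window, the AP-1 core in the next pair, and the CTCF motif in the TTC32 window.
Intergenic, nearest coding start SLITRK5, chr13:87776361-87776560: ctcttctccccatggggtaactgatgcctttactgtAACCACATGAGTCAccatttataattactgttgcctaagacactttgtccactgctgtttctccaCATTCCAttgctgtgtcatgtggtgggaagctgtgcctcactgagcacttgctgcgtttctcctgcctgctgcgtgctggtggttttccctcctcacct
EREG intron, chr4:75240406-75240605: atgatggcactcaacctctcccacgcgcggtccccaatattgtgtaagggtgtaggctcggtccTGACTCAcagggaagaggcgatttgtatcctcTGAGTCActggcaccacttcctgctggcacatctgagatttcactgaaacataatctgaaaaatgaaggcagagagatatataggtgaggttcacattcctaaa
Intergenic, nearest coding start SOX9, chr17:69897090-69897289: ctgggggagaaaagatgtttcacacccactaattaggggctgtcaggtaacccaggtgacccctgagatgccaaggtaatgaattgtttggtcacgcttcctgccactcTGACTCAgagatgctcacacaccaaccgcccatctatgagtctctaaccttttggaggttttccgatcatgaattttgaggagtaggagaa
Intergenic, nearest coding start TTC32, chr2:20001206-20001405: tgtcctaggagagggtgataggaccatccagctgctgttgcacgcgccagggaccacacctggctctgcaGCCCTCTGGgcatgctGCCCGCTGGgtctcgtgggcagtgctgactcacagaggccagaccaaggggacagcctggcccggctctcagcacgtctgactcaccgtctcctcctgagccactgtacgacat

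Peak strength differed between the libraries that supplied the members. Fold enrichment, which divides the summit's tags by its local background after adding 1 to both, had a median of 5.23 in library 6 (5th to 95th percentile 3.90 to 8.27, highest 14.9). In library 4 its median was 4.17 and its highest value 5.65, so that no library 4 member reached the strongest quartile of library 6, which began at 6.20. Since fold enrichment was part of the peak call, these values describe the members and were not tested. The number of tags at a summit was small in both, with a median of 15 (8 to 66) in library 6 and 16 (11 to 61) in library 4. The strongest members of library 6 were in an intron near MAGEC1 (14.9, 40 tags, without an AP-1 core), in SCN9A (12.8), in an intron of GALNT7 (12.7, with the core and a RUNX motif) and near KCNJ2 and DPYD. Those of library 4 included members in an exon of the pseudogene ADAMTS7P4 and near ZNF722 (5.65 each), near SH3PXD2B (5.61) and in an intron of LINC02149 (5.49), and none of these held the core. The q-values were correspondingly weaker in library 4, with a median −log10 q of 3.21 against 5.64 in library 6. Member width had a median of 255 bp in library 6 and 217 bp in library 4.

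**Figure D1:**
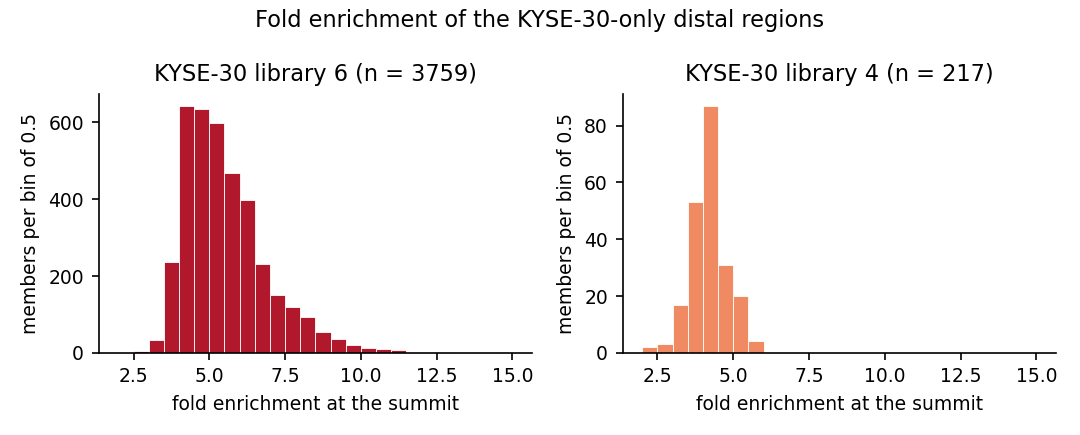
Number of KYSE-30-only distal regions (vertical axis, members per bin of 0.5) by fold enrichment at the summit (horizontal axis, ratio) in library 6 (left) and library 4 (right). The vertical scales differ. Library 6 members reach 14.9, and library 4 members end at 5.65.

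The replicates of KYSE-30 overlapped little at distal sites. Of the 412 distal regions with a peak in library 4, 158 (38.3%, 95% Wilson interval 33.8 to 43.1%) also had a peak in library 6 and 217 (52.7%) were members. In the other direction, 158 of the 5198 distal regions of library 6 (3.04%, 2.61 to 3.54%) had a peak in library 4, 1366 (26.3%) also had one in HET-1A, and 3759 (72.3%) were members. Peaks just beyond the merging limit were few, since 12 of the library 6 members lay within 1 kb of a library 4 peak and 81 within 1 kb of a peak of HET-1A library 2. The members are therefore peaks called once, and "KYSE-30-only" states where a peak was called, not that the site was closed elsewhere. Without HET-1A library 2 the rule would have kept 5264 regions, and without library 6 it would have kept 279.

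The AP-1 core was the most frequent of the 23 motifs examined in library 6 members, but not in library 4 members. There the E-box of ZEB and SNAI proteins (50 of 217) and the CEBP motif (8.76%) were more frequent and the KLF motif equally so (7.37%). These 3 motifs are also common in the genome windows, at 13.8%, 11.0% and 2.98%. Relative to the genome share, they stood at 1.67, 0.79 and 2.48 times in library 4, and the AP-1 core at 2.41 times. The AP-1 core lay within the 200-bp window of 39.2% of the library 6 members (95% Wilson interval 37.7 to 40.8%) and 7.37% of the library 4 members (4.59 to 11.6%). Among all 11571748 hg19 windows of the same length more than 3 kb from a start site, 3.06% held it. The share was 26.9% in the 6131 distal regions with peaks in HET-1A only, 12.3 percentage points below library 6 (95% Newcombe interval of the difference 10.4 to 14.3). It was 53% in the 1399 distal regions with peaks in both HET-1A and KYSE-30, 13.8 points above library 6 (10.8 to 16.9). The 60 KYSE-30-only distal regions with peaks in both libraries held it in 43.3%. Of the 195 other distal regions of library 4, 85 (43.6%) held the core. All of them had a peak in another library, and a window was centered on the strongest peak of its region, whichever library that came from. This share therefore does not show how often the library 4 peaks there held the core. These intervals cover counting error only and treat regions as independent.

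**Figure D2:**
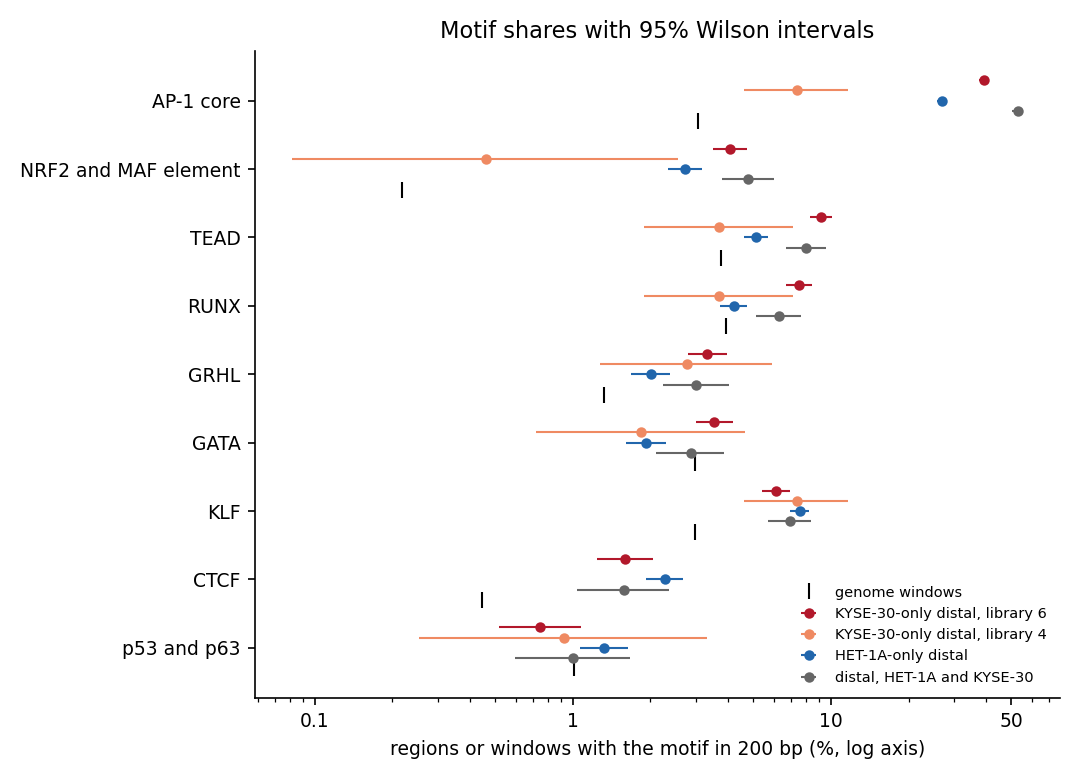
Share of regions with each plotted motif in 200 bp around the summit (horizontal axis, percent, log scale) for library 6 members, library 4 members, HET-1A-only distal regions, distal regions of HET-1A and KYSE-30, and all genome windows more than 3 kb from a start site. Points are shares and bars 95% Wilson intervals, and of the motifs plotted, CTCF has no point for library 4, where its count was 0. The AP-1 core lies at 39.2% in library 6 and 7.37% in library 4.

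Cores were concentrated at the summits. In library 6, 1233 of the 2712 cores within 500 bp of a summit (45.5%) were within 50 bp of it, and 6.42% were more than 400 bp away. The corresponding share within 50 bp was 42.5% of 3087 cores in the HET-1A-only distal regions and 47.6% of 1379 in the regions of both lines. In library 4, 10 of 39 cores (25.6%) were within 50 bp of the summit. This share was lower but rests on few cores, and its difference from the other sets was not tested. Most library 6 windows with a core held 1 (1205 windows), 240 held 2, and 29 held 3 or more.

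**Figure D3:**
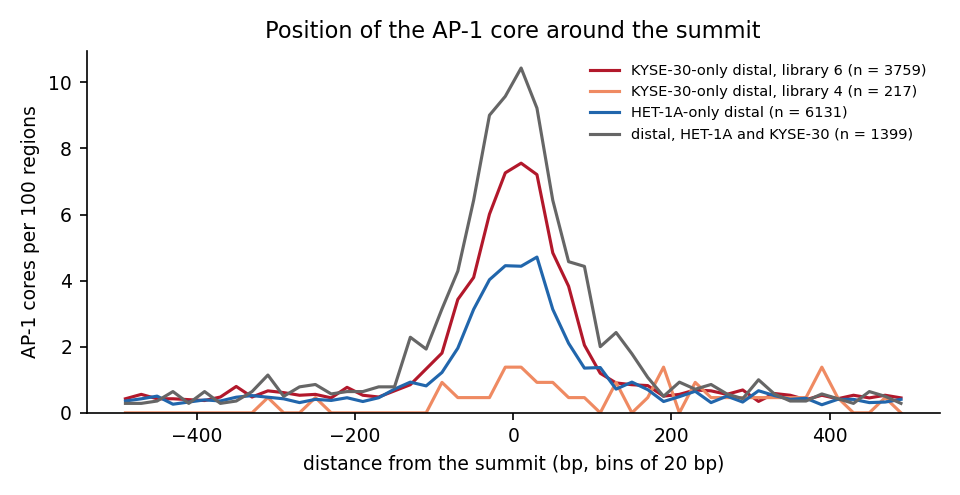
AP-1 cores per 100 regions (vertical axis) by distance from the peak summit (horizontal axis, bp, bins of 20 bp) in 4 sets of distal regions. Library 6 members, HET-1A-only regions and the regions of both lines peak at the summit, while the line of library 4, from 39 cores, stays low.

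The bases beside the core were also uneven. Read so that the core is TGACTCA, the base before it was T in 7.14% of the 1779 cores of library 6 members, against 25.3% of all 459778 cores in the genome, and the base after it was A in 7.25%, against 22.8%. The combination TTGACTCAA occurred 5 times (0.281% against 5.42% in the genome). The forms ATGACTCAG and ATGACTCAT were the most frequent, with 196 occurrences each (11.0% against 6.88% and 5.98%), and ATGACTCAC was 2.03 times as frequent as in the genome. The form CTGACTCAG, the most frequent in the genome at 8.54%, made up 6.07%.

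The share of members with a core rose with peak strength. In library 6 it was 22.0%, 33.2%, 46.3% and 55.4% from the weakest to the strongest quartile of fold enrichment, each of 939 or 940 members, and the intervals of neighboring quartiles did not overlap. HET-1A-only regions of library 2 showed the same order, with 10.5%, 20.2%, 33.8% and 44.2%. The quartiles were cut within each set, and the strongest began at 6.20 in library 6 and at 4.55 in HET-1A library 2. HET-1A-only regions of 3.82 to 4.55 held the core in 33.8%, against 22.0% of library 6 members of 2.58 to 4.51. The sets were therefore not compared at equal fold enrichment. GC content fell slightly across the quartiles of library 6, from a median of 48.0% to 45.5%, and its part in the trend was not tested. The core was about equally frequent in intronic (40.3%, 38.2 to 42.4%) and intergenic members (38.3%, 35.9 to 40.8%), and also at all distances, from 37.5% at 3 to 10 kb from a start site to 43.5% beyond 100 kb (35.9 to 51.4%).

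**Figure D4:**
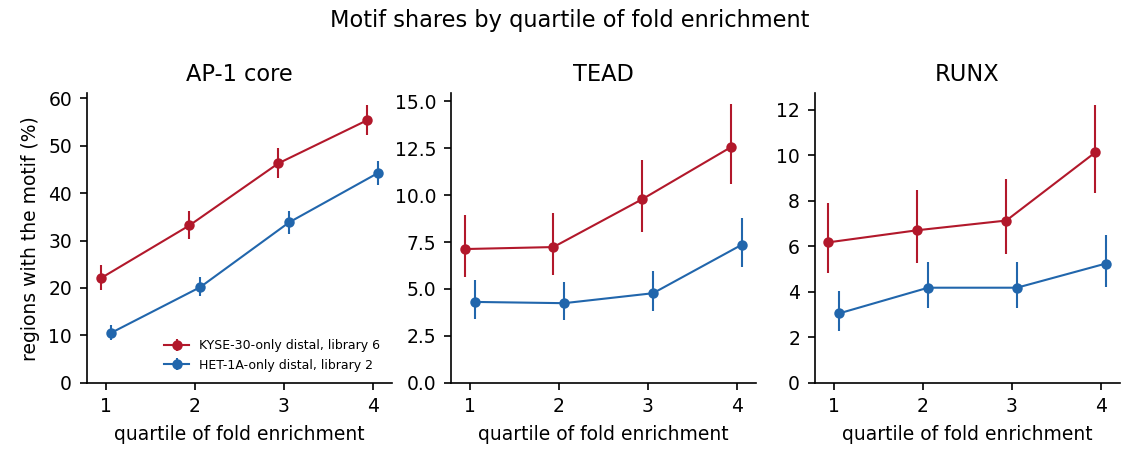
Share of regions with the AP-1 core, the TEAD motif and the RUNX motif (vertical axes, percent, different scales) by quartile of fold enrichment within the set, from weakest (1) to strongest (4), for library 6 members and HET-1A-only distal regions of library 2. Bars are 95% Wilson intervals. Library 6 lies above HET-1A at every quartile rank, and the AP-1 core reaches 55.4% and 44.2% in the strongest. The ranks are not matched for fold enrichment, since the strongest quartile begins at 6.20 in library 6 and at 4.55 in HET-1A library 2.

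Motifs of TEAD and RUNX proteins were more frequent in library 6 members than in the HET-1A-only regions. The TEAD motif CATTCCA occurred in 9.18% against 5.12% (difference 4.06 points, 3.0 to 5.15) and in 3.76% of the genome windows. The RUNX motif TGTGGTT occurred in 7.53% against 4.21% (difference 3.32 points, 2.36 to 4.33) and in 3.94% of the windows. Against the distal regions of both lines neither differed beyond the counting interval, with differences of 1.17 points (−0.60 to 2.80) for TEAD and 1.24 points (−0.37 to 2.70) for RUNX. In the strongest quartile of library 6 they reached 12.6% and 10.1%. Neither went with the AP-1 core: the TEAD motif was in 8.89% of members with a core and 9.37% of those without, and the RUNX motif in 7.46% and 7.57%. All 3 motifs stood together in 8 members, and at least 1 of them in 1841 (49.0%). In library 4 both motifs were in 3.69% (1.88 to 7.10%), which includes the genome share.

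Between library 6 members and HET-1A-only regions, the other motifs differed by fewer percentage points than the AP-1 core, although the ratio of the shares was larger for some of them. The NRF2 and MAF element TGACTCAGC, which contains the AP-1 core, was in 4.07% of library 6 members, 18.8 times the genome share, and in 2.72% of HET-1A-only regions (difference 1.35 points, 0.61 to 2.12). The GRHL motif AACCNGTT, bound by grainyhead-like epithelial factors, was in 3.33% against 2.01% (0.67 to 2.02 points higher), and the GATA motif AGATAAG in 3.54% against 1.92%, with a genome share of 2.97%. Lower in library 6 than in HET-1A-only regions were the KLF motif GGGTGTG (6.12% against 7.57%), the E-box CACGTG of MYC (2.55% against 3.64%), the E-box CAGGTG of ZEB and SNAI proteins (19.9% against 22.3%), the CEBP motif TTGCNNAA (10.1% against 12%) and the CTCF motif CCAGNGGGC (1.60% against 2.27%), each with an interval of the difference that left out 0. The p53 and p63 motif, CATG repeated after a gap of 6 bases, was in 0.74% of library 6 members, 1.32% of HET-1A-only regions and 1.01% of genome windows. The CRE, ETS, SOX, FOX, NFI, NF-kB, STAT, HNF1, NFY, IRF and SP motifs had intervals of the difference that reached 0. Every motif was counted on both strands by its letters, and a match does not show that a factor was bound. Median GC content was 46.5% in library 6 members, 51.5% in library 4 members, 49.5% in HET-1A-only regions and 39.0% in genome windows, and its part in these differences was not tested.

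By annotation the members resembled the distal genome. Introns held 55.2% of them (53.6 to 56.7%), intergenic sequence 40.4% (38.9 to 42.0%) and exons 4.43% (3.83 to 5.11%), while the genome windows more than 3 kb from a start site divided into 54.1%, 42.1% and 3.78%. Exons were overlapped by 8.29% of library 4 members (5.31 to 12.7%) and 4.20% of library 6 members (3.61 to 4.89%). From the nearest start site of any gene, 33.2% of members were 3 to 10 kb away, 51.4% 10 to 50 kb, 11.3% 50 to 100 kb and 4.10% 100 to 500 kb. HET-1A-only regions lay closer to start sites, with 40.8% at 3 to 10 kb (39.6 to 42.0%) and 2.54% beyond 100 kb. At the edge of the rule, the members nearest a start site were in introns of FNDC3B at 3005 bp (fold enrichment 5.70), CDHR2 at 3009 bp (4.93) and GABPB2 at 3014 bp (3.96). The regions left out just inside the limit were one in ARHGAP26 at 2998 bp (4.11) and those nearest to LCA5 and FHL1, both at 2996 bp (6.75 and 6.43).

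Members were spread over the genome at 1.72 per Mb of distal sequence, with large differences between chromosomes. Relative to HET-1A-only distal regions, of which there were 2.65 per Mb, the overall ratio was 0.65. The ratio was 3.32 on chromosome X (83 members), 1.81 on chromosome 4 (210), 1.32 on chromosome 10 (205) and 1.17 on chromosome 12 (203). Among the autosomes it was lowest on chromosome 19 at 0.10 (36 members against 345 regions), followed by 0.22 on chromosome 22 and 0.23 on chromosome 16. These ratios also depend on the HET-1A-only regions. Chromosome X had 0.63 members and 0.19 HET-1A-only regions per Mb, and chromosome 19 had 1.13 and 10.8. The density of members was highest on chromosome 1 (2.71 per Mb) and, apart from chromosome Y, lowest on chromosome X. The members of library 4 were 0 on chromosome X and 24 on chromosome 1. The local background at the summit was under 2 times the library's genome background in 88.3% of members and at least 4 times in 23 (0.58%). Windows of 1 Mb with a raised median of this ratio included 5 members near PPFIA1 and SHANK2 on chromosome 11 (7.78 times). HET-1A library 2 had 94 peaks in that window, against 11 in library 6 and 6 in library 4.

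Most members stood alone. When members within about 12 kb were joined, 3508 (88.2%) had no neighbor and 17 groups of 3 or more held 54 members (1.36%, 1.04 to 1.77%). The groups of 4 lay in introns of TOX, a nuclear factor of lymphocyte development (fold enrichments 4.27 to 6.52, 1 member from library 4), in introns of FGF13 (4.38 to 6.11), and between RASSF8 and SSPN (4.21 to 6.11). Groups of 3 with the highest summed fold enrichment lay in introns of CCN4, a secreted matricellular protein (3.95 to 8.20), and of LMO7 (5.00 to 7.18).

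The 1-Mb window with the most members was that of TP63, the gene of the p63 factor that specifies squamous epithelium. It held 16 members at chr3:189000001-190000000, where HET-1A libraries 1 and 2 had 0 and 1 peaks, KYSE-30 libraries 4 and 6 had 4 and 20, and both KYSE-150 libraries had 0. Within 1 Mb of the TP63 start there were 24 members, 1 of them from library 4, with fold enrichments of 3.53 to 9.07, and 8 held an AP-1 core. The same interval contained 2 HET-1A-only distal regions. TP63 itself was the nearest coding gene of 2 members, 1 intergenic at 67.1 kb (4.37) and 1 in an intron (6.01, with an AP-1 core). The others were nearest to TPRG1, P3H2 (8 members, 4.90 to 8.13), the tight junction gene CLDN1 (3 members, 4.40, 5.74 and 7.49), CLDN16 and IL1RAP. Other windows of 11 or 12 members were at chr8:134000001-135000000 (NDRG1, CCN4 and ST3GAL1), chr17:69000001-70000000 (SOX9 and KCNJ2) and chr5:173000001-174000000 (CPEB4 and MSX2). HET-1A library 2 had 2, 1 and 8 peaks in them, against 18, 12 and 15 in library 6. In 1 further window of 11 members, not named here, they had 12 and 21.

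SOX9, a transcription factor of progenitor cells in many epithelia, was the coding gene with the most members. It was nearest to 12, all of library 6, at 30.7 to 932 kb from its start, and 7 of them held an AP-1 core. Their fold enrichments ran from 4.01 to 8.87, the highest in the window printed above, 220 kb before the gene, and 1 HET-1A-only region had SOX9 as its nearest coding gene. Next came EFNA5, an ephrin ligand, with 10 members (3.77 to 10.9), and 9 each for PTPRM, a receptor phosphatase (3.73 to 7.76), FGGY (3.99 to 9.32) and NFIA, a transcription factor (3.60 to 8.52), each with 0 HET-1A-only regions. LRATD1, OTOL1, P3H2, CDH9 and ASB3 had 8 each. The count of a gene also depends on the length of sequence nearest to it, so these genes were not compared with each other.

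**Figure D5:**
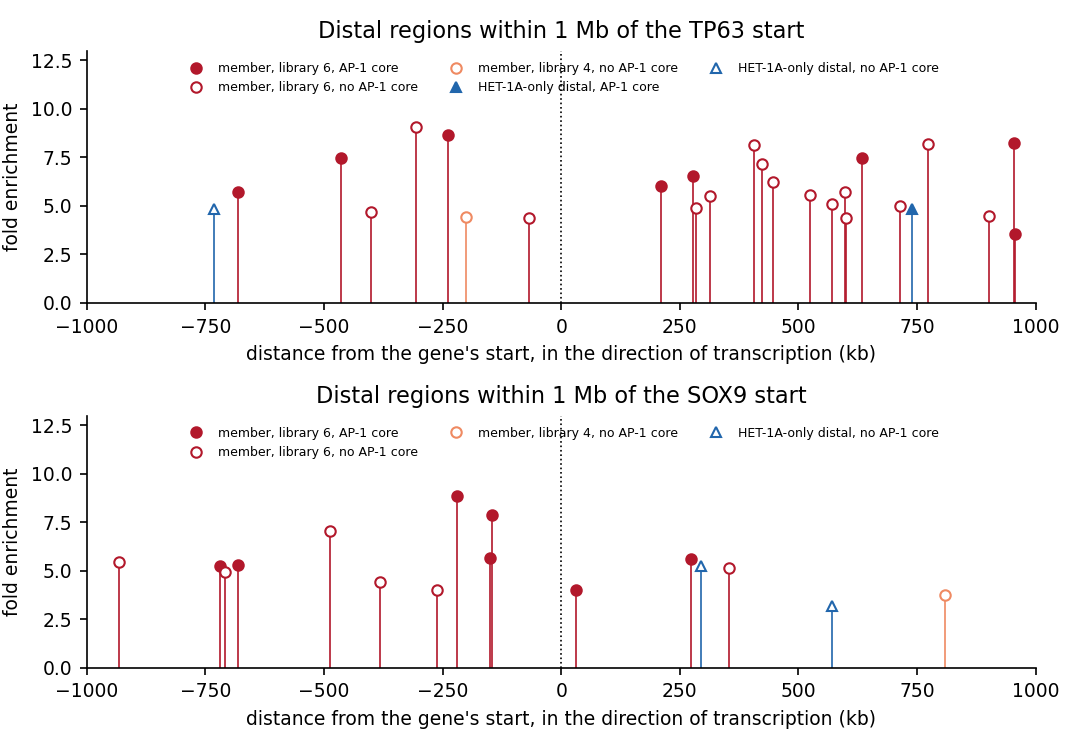
Fold enrichment (vertical axis, ratio) of distal regions by distance from the start of TP63 (top) and SOX9 (bottom), in kb in the direction of transcription. Red circles are members from library 6, orange circles members from library 4 and blue triangles HET-1A-only distal regions, filled where the window held an AP-1 core. Members number 24 around TP63 and 14 around SOX9, against 2 HET-1A-only regions around each.

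Taking the nearest coding start as the assignment, 2611 of 20136 coding genes (13%) had at least 1 member and 3458 (17.2%) had at least 1 HET-1A-only distal region. Most had 1 member (1841 genes), and 63 had 5 or more. The gene lists that follow are described by their counts beside these shares, without a test, and a nearest gene need not be the gene a site acts on. The share of a list also depends on the length of sequence nearest to its genes, which was not adjusted for.

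Among the gene lists, those of the EGFR pathway had the highest shares of genes with a member. Of 15 genes of ERBB receptors and ligands, 8 had a member (53.3%), 13 members in all, against 3 with a HET-1A-only region. Among the ligands, NRG1 had 4 intronic members (4.42 to 6.54), and the neighboring ligand genes of chromosome 4 had 2 at EREG (6.68 and 5.11, both intronic, both with the core), 1 at EPGN (6.12, with the core), 1 at AREG (4.94) and 1 at BTC (4.14). TGFA (4.14) and NRG3 (4.42) had 1 each. Of the receptors, ERBB4 had 2 (6.03 at 22.7 kb and 6.43 at 416 kb from its start). The EREG site printed above had 34 tags over a background of 4.24, and its cores lay 33 bp before and 1 bp from the summit.

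Feedback and target genes of the MAP kinase pathway, most of them inhibitors that dampen it, numbered 10 of 15 (66.7%) and 25 members. A HET-1A-only region was found for 6 of them (40.0%), which is also above the 17.2% of all coding genes. SPRY2, an inhibitor of receptor tyrosine kinase signaling, was nearest to 5 members, 99.5 to 1179 kb from its start (4.81 to 9.19), of which 0 held an AP-1 core. ERRFI1, a direct inhibitor of EGFR, had 4 (3.92 to 7.58, 2 with the core) but also 4 HET-1A-only regions. PHLDA1 had 4 (4.23 to 6.15, 3 with the core), the ERK phosphatase genes DUSP4 and DUSP6 had 4 (5.07 to 6.03) and 2 (5.91 and 6.30, both with the core), and DUSP5 had 2 (3.44 and 3.80). The members of DUSP4 lay 154 to 315 kb from its start, and those of DUSP6 125 to 233 kb. ETV5 (6.84), SPRY1 (5.88), SPRED2 (4.51) and SPRY4 (4.34) had 1 each.

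Lineage and adhesion genes had members in both groups of regions. Of 18 squamous transcription factor genes, 7 had a member and 9 a HET-1A-only region. KLF5 had 3 (4.05, 4.72 and 6.43), KLF4 had 3 (4.29 to 6.17) beside 8 HET-1A-only regions, and TFAP2C had 2 (4.17 and 6.0, both with the core). The KLF4 members lay 222 to 559 kb from its start. Integrin, laminin and hemidesmosome genes numbered 6 of 16 in each set, among them LAMA3 (4.72 and 5.68), ITGB6 (6.06), ITGB8 (6.47) and CD44 (4.86). Cell junction genes numbered 4 of 18 with a member and 12 with a HET-1A-only region, and CLDN1 had the most members. Keratin genes numbered 1 of 14 (KRT8, from library 4, 4.40) against 4.

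For TGF-beta and mesenchymal transition genes the counts were 6 and 7 of 17. TGFBR2, the type II receptor, had 4 members, of 8.84, 7.24, 6.80 and 4.02, of which the strongest pair held the core, and 0 HET-1A-only regions. TGFB2 had 3 (4.21 to 5.35), 2 of them from library 4, and TWIST1 (5.40), ZEB2 (5.23), TGFBI (4.32) and TWIST2 (3.60) had 1 each. The ZEB2 member lay 1073 kb from the gene's start and the TWIST2 member 144 kb, against 37.6 kb for TWIST1 and 8.27 kb for TGFBI. NRF2 pathway genes numbered 4 of 14 in both sets, with 2 members at the cystine transporter gene SLC7A11 (6.03 each) and 1 at NFE2L2 itself (5.06, with the core). Of 21 genes of AP-1 subunits and MAF factors, 3 had a member and 11 a HET-1A-only region. JUN had 2 (3.92 and 5.65) and FOSL2 had 2 (4.09 and 4.28). YAP and TEAD pathway genes counted 3 of 12 (LATS2 4.82, WWTR1 4.69 and CCN1 4.60) against 6, matrix proteases 1 of 17 (PLAU, 6.80, with the core) against 7, and cyclins and CDK inhibitors 2 of 16 (CDK6 6.64 and CDKN2B 5.63, both with the core) against 3. Genes of blood, neuron, liver and endothelium, taken as a list foreign to this tissue, had a member in 4 of 16 (KDR 7.69, CDH5 6.34, NEUROD1 4.20 and RBFOX3 4.07) against 3 with a HET-1A-only region, a share of 25%, which is above the 13% of all coding genes as well.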

How the data were processed

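Peaks of 6 ATAC-seq libraries were analysed. The authors mapped reads to hg19 (Bowtie2 2.3.3.1), removed blacklisted regions, corrected for the Tn5 offset, kept fragments under 100 bp and called peaks per library with MACS2 (2.1.0.20160309, q-value 0.05, 200-bp extension), without a control. The deposited lists give a score (10 times −log10 q, rounded), a fold enrichment (a ratio), the −log10 p- and q-values and the summit position. Sites with weak signal in a second library are absent from such lists, so a missing peak sets no level there. Tags and local background were recovered from fold enrichment and −log10 p (Poisson, tolerance 0.001), which was tested on simulated data.

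Merged regions were annotated with GENCODE 44 lifted to hg19, in the order exon, intron, intergenic. Motifs were searched on both strands in 200 bp around the summit of a region's strongest peak, with hg19 windows of the same length as background. Wilson and Newcombe 95% intervals cover counting error only. Python 3.11.15, pysam 0.24.0, scipy 1.17.1 and statsmodels 0.14.6 were used. The members, gene lists and motifs were chosen with earlier results of these data known. Named, apart from items not reported here, were the 5 strongest members per library, the largest joined groups and windows, the 10 genes with the most members, up to 4 genes per list and the members at the 3-kb limit. Other genes of a list were named after their values were seen. Alternatives were the peak threshold, overlap, start sites, distance, segment, motif window, joining distance, each library left out and, added after the data were seen, a local background under 4 times the genome background.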

Additional observations from a re-analysis of the deposited data

How the results depend on the processing

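The number of members stayed within 1.5 times 3976 (2657 to 5264) under every alternative except without KYSE-30 library 6, where 279 remained, since library 6 supplied 94.5% of them. With each library left out in turn, the count ranged from 279 to 5264, the share with the AP-1 core from 13.6 to 41.2%, the intron share from 50.2 to 55.3%, the intergenic share from 40.4 to 42.3%, the median fold enrichment of library 6 from 5.23 to 5.33 and the share in joined groups from 1.08 to 2.43%. Without HET-1A library 2 the core was in 41.2%, and without library 6 in 13.6%. The AP-1 share was 26.5% in 100 bp around the summit, 40.9% over the whole region, 40.4% with q under 0.001 and 35.5% with start sites of coding genes only. For coding start sites only and for more than 10 kb from every start site, the intron share was 52.3% and 52.2% and the intergenic share 37.7% and 45.1%. The median fold enrichment of library 6 was 5.38 with q under 0.001 and 5.25 beyond 10 kb. The share in joined groups was 0.23% within 5 kb, 3.60% within 25 kb and 2.05% where peaks had to overlap by at least 50% of each. Merging touching peaks, keeping the chromosome 7 segment, a q under 0.01 and, added after the data were seen, a local background under 4 times the genome background moved none of these values beyond its interval. No paired analysis was possible because library numbers are not shared between lines. With a median of 15 tags at a summit, a site of low accessibility could be missed in any library, and no value below the peak call is held for the other libraries. The peak lists were called at unequal depth, as read from the genome background, but peak numbers did not follow it within KYSE-30. Library 6 had 1.49 tags and 11671 peaks, and library 4 had 2.36 tags and 1255 peaks. What set these numbers apart was not tested. The count of sites absent elsewhere is not a count of closed sites.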
